A study of Mus musculus with 4 samples.

Results

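The R-spondin, Lgr and Rnf43/Znrf3 genes set how strongly a cell responds to WNT ligands. Rnf43 and Znrf3 are transmembrane ubiquitin ligases that remove Frizzled receptors from the cell surface, and both are known WNT target genes that feed back on the pathway. The secreted R-spondins (Rspo1, Rspo2, Rspo3 and Rspo4) bind the receptors Lgr4, Lgr5 and Lgr6 together with one of the ligases and clear the ligase from the membrane, which raises the number of Frizzled receptors. In skin and its appendages Lgr5 and Lgr6 are known for marking stem cells of the hair follicle.

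These 9 genes, of 21829 protein-coding genes with a start site, were examined in ATAC-seq data from the facial surface ectoderm of E11.5 mouse embryos. In ATAC-seq a transposase cuts DNA that is free of nucleosomes and tags it for sequencing. A peak was assigned to a gene where its centre and the start site of that gene were no more than 100 kb apart, in 2 lists. The first list holds 65467 control peaks, called on both libraries from control littermates (Tfap2a flox/+; Tfap2b flox/+, without the Crect transgene). The second holds 3103 AP-2-dependent regions, where the combined control libraries exceeded the combined libraries from ectoderm double knockout (EDKO) embryos. There were 2 EDKO libraries (Crect with Tfap2a flox/flox and Tfap2b flox/flox), so that all 4 libraries carried floxed alleles of both genes. Tfap2a and Tfap2b encode the transcription factors AP-2α and AP-2β, and Crect expresses Cre recombinase from a Tfap2a intronic enhancer, which by the study's methods can recombine beyond the ectoderm, so that sires were screened with reporter lines. The ectoderm was pooled from the facial prominences. The rule gave 110 control peaks and 5 AP-2-dependent regions.

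The libraries were combined in each call, so a peak has no value per library, the number of reads behind it is not known, and the lists allow no test against the spread between libraries. Shares are given with 95% exact Clopper-Pearson intervals, which cover counting error only. Peak strength is the −log10 p at the summit, from the test of the peak caller against its background, which for the regions was the EDKO libraries, and is not adjusted for the number of positions. It is also given as a percentile of the same list. The start sites of 10 of 10 surface ectoderm marker genes (among them Epcam, Cdh1 and Trp63) had a control peak, as did those of 8 of 8 facial mesenchyme markers, 4 of 5 neural, 2 of 5 blood and 1 of 5 endothelial markers. An open start site was thus no measure of the cell type here, and the cell makeup of the libraries was not tested.

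The 5 AP-2-dependent regions lay at 4 of the 9 genes: Rspo1, Lgr6, Rnf43 and Znrf3, the last with 2. For comparison, 20.2% of all protein-coding genes had such a region in reach of 100 kb. The sequence of each region around its summit is shown first, because these are the stretches of DNA near the 9 genes that were called as less accessible in EDKO ectoderm. They are written 5′ to 3′ on the plus strand of GRCm38 in lower case, and each runs 100 bases to both sides of the summit, except that the Rnf43 sequence stops where an annotated UTR begins. Capitals mark GCCNNNGGC or CCTNAGG (2 strings that AP-2 proteins are known to bind), CTTTGAT (bound by TCF/LEF factors, the nuclear effectors of WNT signalling) and GGAATG (bound by TEAD factors), on either strand.
Rspo1, 71.7 kb downstream: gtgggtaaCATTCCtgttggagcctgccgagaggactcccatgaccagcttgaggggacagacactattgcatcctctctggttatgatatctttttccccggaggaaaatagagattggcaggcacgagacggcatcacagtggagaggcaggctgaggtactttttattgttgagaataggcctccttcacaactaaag
Lgr6, 27.6 kb downstream: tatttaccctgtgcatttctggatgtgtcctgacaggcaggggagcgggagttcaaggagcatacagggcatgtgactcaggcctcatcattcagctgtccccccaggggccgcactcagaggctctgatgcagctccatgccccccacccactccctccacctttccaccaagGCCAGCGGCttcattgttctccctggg
Rnf43, 5.85 kb upstream: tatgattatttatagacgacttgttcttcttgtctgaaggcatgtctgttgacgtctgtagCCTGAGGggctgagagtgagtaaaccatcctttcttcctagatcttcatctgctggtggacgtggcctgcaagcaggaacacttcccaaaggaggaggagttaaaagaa
Znrf3, 6.09 kb upstream: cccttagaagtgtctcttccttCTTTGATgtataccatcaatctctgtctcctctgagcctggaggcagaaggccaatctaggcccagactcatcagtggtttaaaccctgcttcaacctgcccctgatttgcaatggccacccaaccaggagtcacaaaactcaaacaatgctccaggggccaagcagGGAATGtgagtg
Znrf3, 17.4 kb downstream: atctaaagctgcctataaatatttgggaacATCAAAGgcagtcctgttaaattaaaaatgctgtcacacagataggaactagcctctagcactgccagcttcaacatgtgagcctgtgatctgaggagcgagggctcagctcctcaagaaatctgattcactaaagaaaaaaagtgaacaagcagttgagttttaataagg

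The capitals in the Lgr6 sequence are a GCCNNNGGC string, and those in the Rnf43 sequence a CCTNAGG string. Both Znrf3 sequences held CTTTGAT, read as its reverse complement in the downstream one. The Rspo1 sequence and the upstream Znrf3 sequence held GGAATG, reverse complemented at Rspo1. A match of letters is a description and not evidence of binding. A region could be called because each cell was less accessible there or because fewer cells with that site open were in the EDKO libraries, and these cannot be told apart.

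The region of Rspo1, a ligand of the Lgr receptors, was chr4:125057945-125058224, 71.7 kb downstream of the Rspo1 start site. It lay in intron 5 of Dnali1, whose own start site was nearer, at 7.62 kb. Its summit reached a −log10 p of 4.59 (percentile 56.7 of all regions), and it filled 53.4% of the control peak around it. With the rule of the nearest start site this region did not belong to Rspo1.

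The region of Lgr6, a receptor for R-spondins, was chr1:135077487-135077869 in intron 1 of Lgr6, 27.6 kb downstream of the start site. Its −log10 p was 6.71 (percentile 85.8). It filled 23.7% of a control peak of 1618 bp, with the summits of region and peak 9 bp apart. That control peak was the strongest of the 21 at Lgr6, with a −log10 p of 9.50. Seen from a second start site of protein-coding Lgr6 transcripts, the region lay 59.9 kb upstream.

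The region of Rnf43, a ubiquitin ligase, was chr11:87656811-87657670, 5.85 kb upstream of the start site. It lay in Hsf5, a heat shock factor gene, with its summit in intron 5 and the summit of the control peak, 15 bp away, in a coding exon. It was wide for a region (860 bp, percentile 95.7), while its −log10 p of 4.52 was at percentile 54.3. Seen from the other start sites of protein-coding Rnf43 transcripts it lay between 7.03 and 42.7 kb upstream.

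The regions of Znrf3, the other ligase, lay on both sides of its start site. The upstream one, chr11:5450664-5451217, was intergenic, 6.09 kb from the start site, and was the strongest of the 5 by −log10 p (8.50, percentile 91.2) and by area under the curve (1513, against a median of 394 for all regions). It filled 98.2% of its control peak, and the summits were 2 bp apart. The downstream one, chr11:5427252-5427644, lay 17.4 kb inside intron 1, had a −log10 p of 4.62 (percentile 57.7) and filled 31.5% of its control peak. A second start site of protein-coding Znrf3 transcripts places these regions 69.2 and 45.7 kb upstream, respectively. In each of the 5 regions, the median copy number of its 31-base stretches on the assembled chromosomes was 1. A part of a region may still be repeated, and scaffolds were not searched. Bases masked as repeats made up 18.9% (Rspo1) to 33.1% (Rnf43) of a region.

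**Figure D1:**
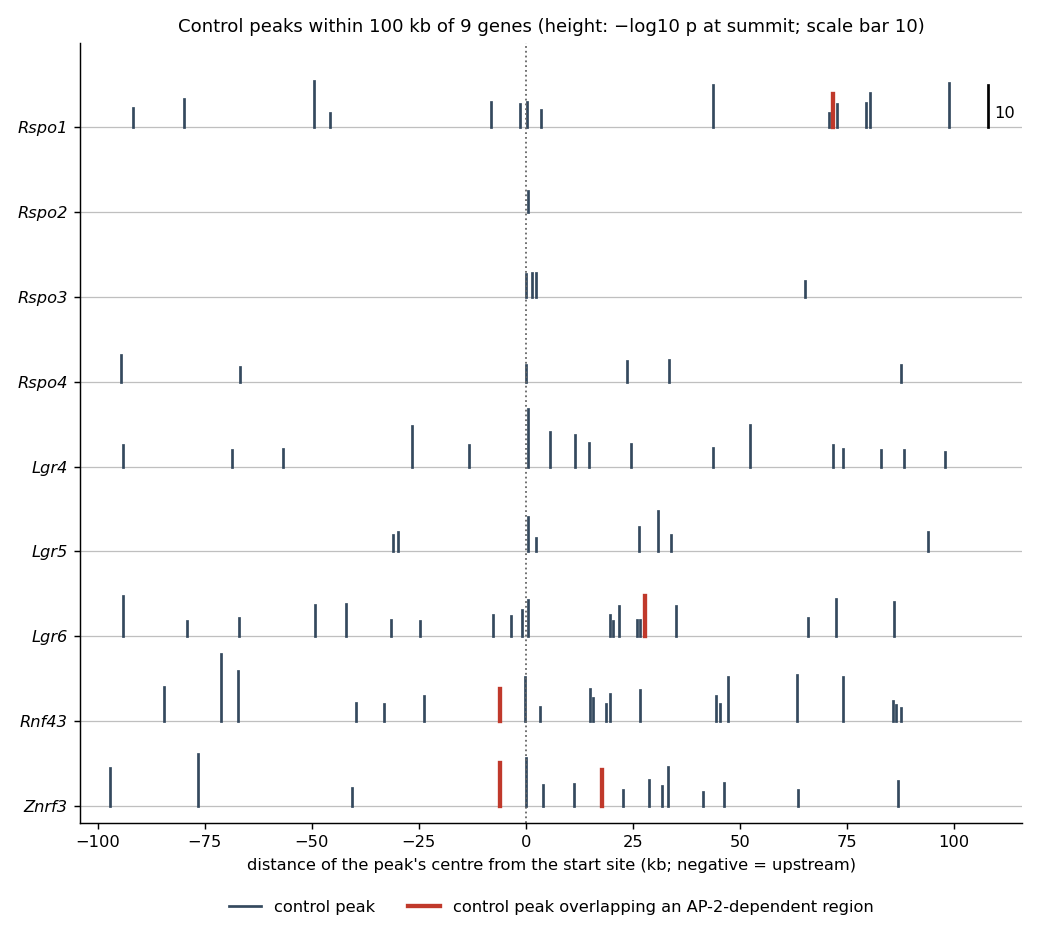
Control peaks within 100 kb of the start sites of the 9 genes, by the distance of the centre from the start site in kb (negative is upstream). The height of a line is the −log10 p at the summit, with a scale bar of 10, and red lines are the 5 control peaks that overlap an AP-2-dependent region, at Rspo1, Lgr6, Rnf43 and Znrf3.

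Each of the 5 regions overlapped a control peak. Of the 110 control peaks, 5 therefore overlapped a region, 4.55% (1.49 to 10.3%), against 4.47% of all control peaks on chromosomes. The share at the 9 genes was near that background. By role it was 1 of 26 peaks at the ligands (3.85%, 0.0973 to 19.6%), 1 of 46 at the receptors (2.17%, 0.0550 to 11.5%) and 3 of 38 at the ligases (7.89%, 1.66 to 21.4%). The intervals of the 3 roles overlapped, and no difference between roles was shown. Without Znrf3 the share was 3.19%.

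The 5 control peaks that overlapped a region ranged from percentile 76.7 to 89.4 of peak strength. All were more than 5 kb from the nearest protein-coding start site, with only the principal start site of each gene counted. Of all control peaks that overlapped a region, 44.0% were above percentile 75, with a median percentile of 72.0. Of the 74 control peaks at the 9 genes more than 5 kb from a start site, 6.76% (2.23 to 15.1%) overlapped a region, against 5.75% of all such control peaks. Of the 21 within 1 kb of a start site, 0 did, which allows a share of up to 16.1%, and the share over the whole list was 1.00%.

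The number of control peaks differed widely among the 9 genes. Protein-coding genes had a median of 8 control peaks within 100 kb (quartiles 4 and 13). Rspo2 had 1, Rspo3 had 4, Rspo4 had 6 and Lgr5 had 8, so that these 4 were at or below the median. Rspo1 had 15, Znrf3 had 16, Lgr4 had 17, Lgr6 had 21 and Rnf43 had 22, at percentiles from 81.2 to 94.1. The 4 genes with a region were among the 5 genes with the most control peaks, and Lgr4 was the other. Over all genes, too, the share with a region was larger where control peaks were more numerous. Among genes with exactly as many control peaks as Rspo1, 31.9% had a region. The share was 40.8% at the number of Lgr6, 40.9% at that of Rnf43, 29.1% at that of Znrf3 and 32.2% at that of Lgr4. It was 4.15%, 12.4%, 15.5% and 20.5% at the numbers of Rspo2, Rspo3, Rspo4 and Lgr5.

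**Figure D2:**
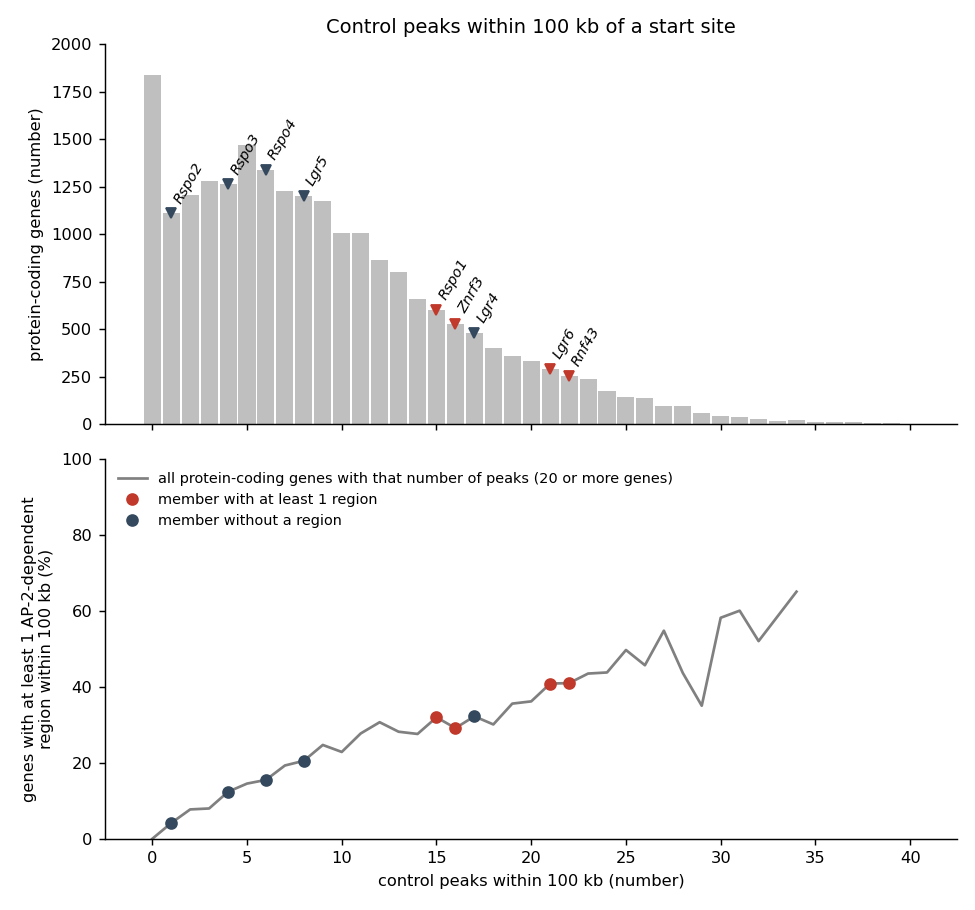
Top, the number of protein-coding genes by their number of control peaks within 100 kb (drawn to 40; the highest is 96), with the 9 genes marked. Bottom, the percent of genes with at least 1 AP-2-dependent region at each number of control peaks (grey line), with the 9 genes placed at their own number; the 4 with a region (red) had 15, 16, 21 and 22 control peaks.

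All 9 genes had a control peak over the start site, against 65.3% of protein-coding genes with one within 1 kb. None of the 10 peaks there (2 at Lgr6) overlapped an AP-2-dependent region, and 4 of them, at Rspo4, Lgr4, Lgr5 and Znrf3, held GCCNNNGGC near the summit. By strength the order was Lgr4, Znrf3, Rnf43, Lgr6, Lgr5, Rspo1, Rspo3, Rspo2 and Rspo4. A peak has no error between libraries, so neighbours in this order cannot be told apart. The 5 receptor and ligase genes were all above the 4 ligand genes.

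Among the ligands, the start-site peak of Rspo1 had a −log10 p of 5.90 (percentile 62.1). That of Rspo3, which is required for placental and vascular development, had 5.52 (percentile 57.0). That of Rspo2, known from limb and facial development, had 4.95 (percentile 47.4). That of Rspo4, known from nail formation, had 4.03 (percentile 23.8) and was the narrowest, at 341 bp.

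Rspo2 had no other control peak within 100 kb. Rspo3 had 2 more within 2.43 kb downstream of its start site and 1 in an intron 65.1 kb downstream, and the strongest of its 4 had a −log10 p of 5.66. The strongest of the 6 at Rspo4 (6.22) lay 94.5 kb upstream, where the nearest gene was Psmf1. At Rspo1 the strongest of 15 (11.0) was 49.4 kb upstream at the start site of Cdca8. A further strong Rspo1 peak (10.5) was at the start site of Meaf6, 98.8 kb downstream. The window of Rspo1 held 6 other protein-coding start sites, and Rspo1 was the nearest gene for 4 of its 15 peaks. The windows of Rspo2 and Rspo3 held none. Most of the peaks counted at Rspo1 were thus nearer to the start site of another gene.

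Among the receptors, the start-site peak of Lgr4, the most broadly expressed of the 3, was the strongest of its 17, with a −log10 p of 13.6 (percentile 98.8) and a width of 2747 bp. The start-site peak of Lgr6 had 8.65 (percentile 83.2), and that of Lgr5 had 8.14 (percentile 80.5). At Lgr5 the strongest of 8 peaks (9.44) lay 30.8 kb downstream in an intron of Lgr5. Introns of the gene itself held 9 of the 17 peaks at Lgr4, 5 of the 8 at Lgr5 and 10 of the 21 at Lgr6, and intron 1 alone held 6, 4 and 6 of them. No peak at Lgr4 or Lgr5 overlapped an AP-2-dependent region within 100 kb.

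The 250 bases before the Lgr4 start site (chr2:109917397-109917646, GRCm38.p6, from RefSeq, plus strand) are shown because the strongest start-site peak of the 9 genes covers them, and because they hold an AP-2 string although the peak overlapped no AP-2-dependent region. Capitals mark 1 GCCNNNGGC string and 2 matches to GGAATG on the other strand.
Lgr4 promoter: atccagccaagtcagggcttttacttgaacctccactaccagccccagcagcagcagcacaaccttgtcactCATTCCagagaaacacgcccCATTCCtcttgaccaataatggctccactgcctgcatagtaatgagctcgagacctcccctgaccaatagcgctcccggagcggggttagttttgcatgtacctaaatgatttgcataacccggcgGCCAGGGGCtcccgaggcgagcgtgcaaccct

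Among the ligases, the start-site peak of Znrf3 had a −log10 p of 11.4 (percentile 94.1) and the largest width, 2899 bp. That of Rnf43 had 10.3 (percentile 90.3). It was also the start-site peak with the lowest GC content, at 45.0%, where that of Rspo4 had the highest, at 74.5%. Intron 1 of Znrf3 held 11 of its 16 peaks, and intron 2 of Rnf43 held 9 of its 22. The strongest peak at Rnf43 (15.8, percentile 99.9) lay 71.1 kb upstream at the start site of Mtmr4. The strongest at Znrf3 (12.1) lay 76.5 kb upstream at Xbp1, a transcription factor of the unfolded protein response.

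The median −log10 p of the 110 control peaks was 5.47 (4.91 to 5.90 by order statistics), against 5.10 for all control peaks. It was 5.54 at the ligands, 5.07 at the receptors and 5.89 at the ligases. Of the 110 peaks, 11 (10.0%) were in the strongest 10% of the list, 8 of them at the ligases. Of those 8, 6 were at Rnf43 and 2 at Znrf3. Among them, only the start-site peaks of Rnf43 and Znrf3 had that gene as the nearest. The others were nearest to Mtmr4, Supt4a or Xbp1, although some lay in introns of Rnf43. Summits lay in introns for 60 peaks, between genes for 36, in UTRs for 9, in coding exons for 3 and in other exons for 2. For 56 of the 110 peaks the nearest protein-coding start site was that of the gene itself.

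**Figure D3:**
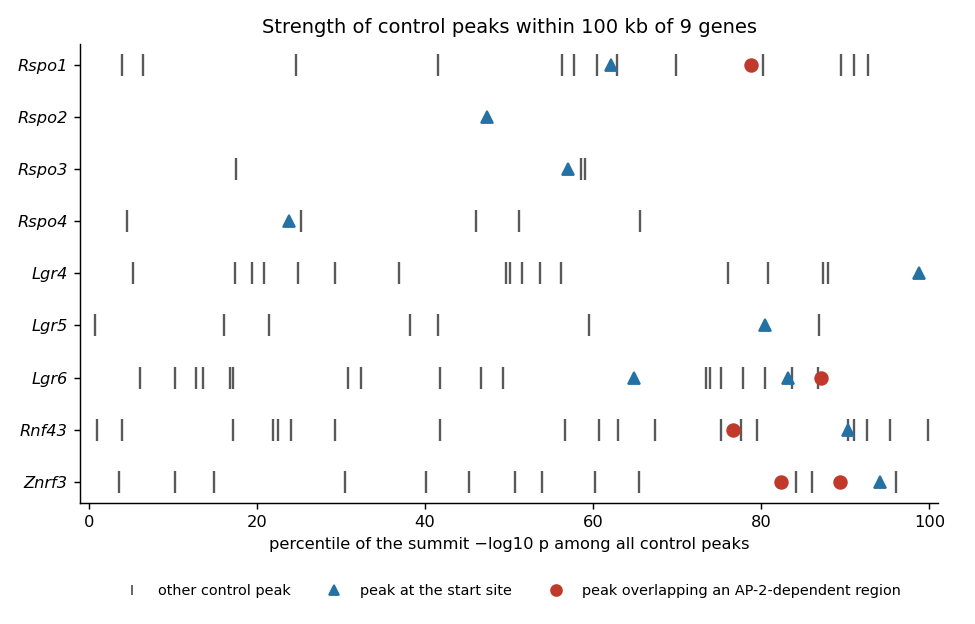
Percentile of the summit −log10 p among all control peaks, for each control peak within 100 kb of the 9 genes. Triangles are peaks at the start site, which run from percentile 23.8 at Rspo4 to 98.8 at Lgr4; circles are the 5 peaks that overlap an AP-2-dependent region, between 76.7 and 89.4.

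The AP-2 string GCCNNNGGC stood within 100 bases of the summit in 16 of the 110 control peaks, 14.5% (8.55 to 22.5%), against 14.4% of all control peaks. Lgr6 had 6 of them, Rnf43 had 3, Rspo1 and Znrf3 had 2 each, and Rspo4, Lgr4 and Lgr5 had 1 each. CCTNAGG stood in 12, 10.9% (5.77 to 18.3%), against 12.9%. Of the 5 regions, 1 held GCCNNNGGC (Lgr6) and 1 held CCTNAGG (Rnf43), against 22.7% and 30.6% of all regions. The other 3 held neither string in this window, but the downstream Znrf3 region held CCTNAGG farther from its summit. The TEAD string GGAATG stood in 20 control peaks, 18.2%, against 17.9% of all. The GRHL string AACCGGTT stood in 1, 0.909% (0.0230 to 4.96%), against 0.338% of all. The string of the p53 family stood in 10, 9.09%, against 8.68%. Except for the GRHL share, which rests on 1 peak, these shares were near those of the whole list. The median GC content was also close, at 51.6% against 51.8%.

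The TCF/LEF string CTTTGAT stood in 10 of the 110 control peaks, 9.09% (4.45 to 16.1%), against 3.59% of all control peaks. Znrf3 had 4 of them, Lgr6 had 3, and Rspo4, Lgr4 and Rnf43 had 1 each. Of the 5 regions 2 held it, both at Znrf3, against 5.05% of all regions. By role the share was 3.85% at the ligands, 8.70% at the receptors and 13.2% (4.41 to 28.1%) at the ligases. The 10 matches are shown on the strand that reads CTTTGAT, with 12 bases on each side. Of the several strings searched, this was the one whose interval did not hold the share of the whole list. That interval counts peaks of the same gene as independent and allows nothing for the number of strings. An excess was therefore not tested. Each name is followed by the distance of the peak's centre from the start site.
Rspo4, 66.8 kb upstream: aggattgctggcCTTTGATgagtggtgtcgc
Lgr4, 5.6 kb downstream: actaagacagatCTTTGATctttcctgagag
Lgr6, 3.54 kb upstream: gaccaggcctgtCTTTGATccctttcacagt
Lgr6, 35.2 kb downstream: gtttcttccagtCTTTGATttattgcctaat
Lgr6, 65.9 kb downstream: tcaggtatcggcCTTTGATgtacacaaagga
Rnf43, 39.7 kb upstream: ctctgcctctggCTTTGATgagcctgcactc
Znrf3, 6.1 kb upstream: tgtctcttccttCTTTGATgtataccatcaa
Znrf3, 17.7 kb downstream: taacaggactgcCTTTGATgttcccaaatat
Znrf3, 31.9 kb downstream: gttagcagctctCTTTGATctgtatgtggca
Znrf3, 33.2 kb downstream: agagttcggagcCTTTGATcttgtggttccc

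The matches lay between 2 and 80 bases from the summits, and the closest were those 65.9 kb downstream of Lgr6 and 39.7 kb upstream of Rnf43. They were not confined to strong peaks: the −log10 p ran from 3.42 at Rspo4 to 10.1 at the upstream Znrf3 peak. The string is more frequent in DNA of low GC content, at 6.04% of control peaks in the lowest of 4 GC classes of equal size and 1.10% in the highest. At the 9 genes it stood in 4 of 34 peaks (11.8%) of the lowest class and in 1 of 29 (3.45%) of the highest. In the classes between, it stood in 3 of 22 (13.6%) and 2 of 25 (8.0%), against 4.60% and 2.63% of all control peaks. The part of GC content in the share was not tested.

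The larger share of this string rested in part on Znrf3 and on the exact letters, in alternatives chosen after the data were seen. Without Znrf3 it stood in 6 of 94 peaks, 6.38% (2.38 to 13.4%), an interval that holds the 3.59% of the whole list. The related string CTTTGAA stood in 4.55% against 4.94% of all control peaks, and the shorter CTTTGA in 17.3% (10.7 to 25.7%) against 13.4%. Among the 56 peaks whose nearest start site was that of the gene itself, CTTTGAT stood in 8, 14.3% (6.38 to 26.2%).

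Other genes of the WNT pathway were described in the same way, by lists of genes. Over the whole series, 20.2% of protein-coding genes had a region and 4.47% of control peaks overlapped one. The Wnt ligand genes had a median of 19 control peaks, a number at which 35.6% of all genes had a region. Of 19 Wnt ligand genes, 13 had a region, and 18 of their 241 control peaks overlapped one, 7.47% (4.49 to 11.5%). Wnt9b had 8 regions and Wnt3 had 7, within windows that overlap, and Wnt10b and Wnt1, also neighbours, had 3 each. Wnt6 and Wnt10a also shared a region, as did Wnt3a and Wnt9a. The Wnt ligand genes had 20 different regions in all, and the 13 genes were not 13 separate loci. Of 12 Frizzled and Lrp receptor genes, 4 had a region, with 2 at Fzd3 and 1 each at Fzd10 and Fzd6, and the share of control peaks was 3.62% (1.19 to 8.25%). Of 15 secreted inhibitor genes, 4 had a region, with 3 at Sostdc1 and 1 each at Dkk4 and Kremen1 (3.45%, 1.28 to 7.35%). Of 10 intracellular feedback genes, 3 had a region, 1 each at Axin2, Apcdd1 and Dvl1 (2.33%, 0.482 to 6.65%). Of 9 genes for nuclear effectors, 4 had a region, with 2 at Tcf7l1 and 1 each at Lef1 and Ctnnb1 (3.55%, 1.16 to 8.08%). The interval of the 9 R-spondin, Lgr and ligase genes overlapped that of each list, and no test of a difference was made.

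The TCF/LEF string stood in 7.09% (3.45 to 12.7%) of the control peaks of the nuclear effectors, 4.60% of the secreted inhibitors, 3.88% of the intracellular feedback genes, 3.32% of the Wnt ligands and 0.725% (0.0183 to 3.97%) of the Frizzled and Lrp receptors.

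**Figure D4:**
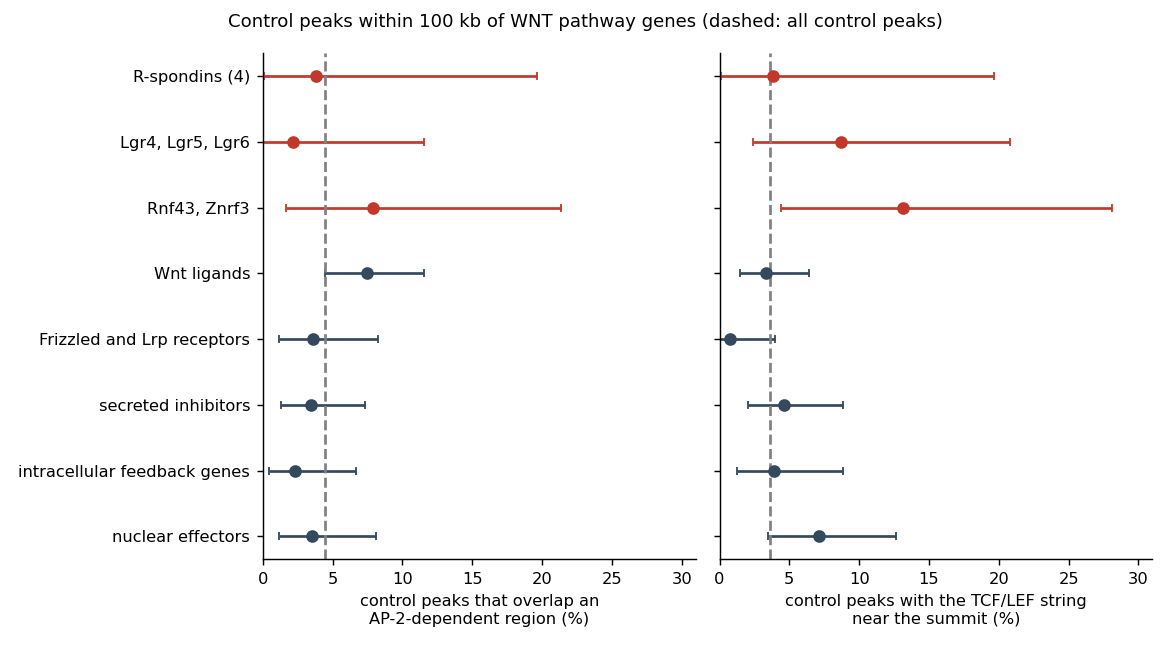
Percent of control peaks within 100 kb that overlap an AP-2-dependent region (left) and that hold the TCF/LEF string near the summit (right), for the 3 roles (red) and 5 lists of other WNT pathway genes (dark), with 95% exact intervals. Dashed lines are the shares of all control peaks, 4.47% and 3.59%. The intervals of the ligases on the right (from 4.41%) and, by a small margin, of the Wnt ligands on the left (from 4.49%) lie above the line, and the others hold it. Of the ligase peaks with the string, 4 were at Znrf3 and 1 at Rnf43.

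The limit of 100 kb decided which genes had a region. The outermost region inside it was that of Rspo1, and the next outside were 126.2 kb upstream of Znrf3, 130.3 kb downstream of Znrf3 and 131.6 kb downstream of Lgr5. The last lay in intron 16 of Lgr5 with a −log10 p of 5.68 (percentile 78.0), and the one 130.3 kb downstream lay in intron 2 of Znrf3, with Kremen1 as the nearest gene. Among control peaks, the outermost inside was that at Meaf6, and the next outside lay 100.4 kb downstream of Lgr4, at the start site of Ccdc34. With a limit of 250 kb the 9 genes had 13 regions, at 5 genes. With a limit of 50 kb they had 4, at 3 genes, since the region of Rspo1 was left out.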

How the data were processed

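Surface ectoderm of E11.5 facial prominences gave 4 ATAC-seq libraries, 2 control and 2 EDKO. The authors trimmed adapters with NGmerge, aligned reads to mm10 with bowtie2, sorted them with SAMtools and ran Genrich for peak calling (ATAC-seq mode, duplicates and chrM excluded). Control libraries together gave the control peaks, and control against EDKO libraries gave the AP-2-dependent regions. The authors deposited per peak a score capped at 1000, the area under the curve as a second score (at least 200.0 in both lists), the −log10 p at the summit, and the summit's offset. The q-value column deposited by the authors holds no values. Values were compared within a list only. The study's methods state a sequencing depth per library, but the lists give no read counts, so the reads behind a peak are not known.

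Each of 21829 protein-coding genes was given the start site of its principal transcript (GENCODE mouse release 21, GRCm38). Rows on scaffolds (169 and 31, respectively) were not assigned to genes. Peaks were assigned by centre within 100 kb. Overlap was counted from 1 bp. Strings were searched on both strands within 100 bases of the summit. Promoters of 5 of the 9 genes were matched in RefSeq (GRCm38.p6). Analyses used Python 3.11.15, pandas 2.3.3, scipy 1.17.1 and pysam 0.24.0. The programs were tested on simulated data, with bedtools 2.31.1 for overlaps. The lists allow no test against the spread between libraries. The region p-values are those of the caller's comparison of control with EDKO libraries.

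The genes, gene lists and strings were chosen with earlier results of these data known. Text was to name every gene of the group, every region, the strongest and the start-site peak of each gene, the rows nearest the limit and the 3 genes of each other list with the most regions. Ties went to the gene with the larger area under the curve of a region, so that Fzd8, Dkk3 and Bcl9l, with 1 region each, came after the genes named. Wnt1 and Wnt10b were tied in this too, and both are named. Wnt3a, Wnt6, Wnt9a and Wnt10a are named only because they share regions. Mtmr4, Psmf1 and other neighbours are named as nearest genes. RNA-seq values, coverage tracks and regions gained in EDKO were not used here.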

Additional observations from a re-analysis of the deposited data

How the results depend on the processing

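Alternatives numbered 47 over 9 results, 40 of them planned and 7 added after the values were seen, and 37 stayed within 1.5 times a count or within the interval of a share or median. The number of control peaks, 110, became 70 at 50 kb, 224 at 250 kb, 71 with a stricter minimum of 500 on the area, and 56 with the nearest gene only. The 5 regions became 13 at 250 kb and 3 with the stricter area, which dropped the Rspo1 region and the downstream Znrf3 region. The stricter area raised the median −log10 p to 7.14. Over whole peaks the AP-2 string stood in 37.3% (32.4% of all control peaks) and CTTTGAT in 16.4% (10.5% of all). Within 100 bases of the summit, the shorter CTTTGA stood in 17.3% (13.4% of all). The share of control peaks that overlap a region ran from 2.73% with an overlap of 50% of both intervals to 7.14% with the nearest gene only.

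No paired analysis was possible because both calls merged their libraries and the lists hold no column per replicate. Leaving out a library was not possible either. An overlap with a list of combined calls gives neither the size of a change nor its error. The reads behind a peak are not known, and a missing region does not show unchanged accessibility. A distance of 100 kb does not tell which gene a region acts on.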

Other observations

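In the 300 bases around the start site (250 before it and 50 after), the ratio of observed to expected CpG was above the median of all genes (0.557) at 8 of the 9 genes, with Rspo2 the exception at 0.508. It was 0.982 at Znrf3 (percentile 91.0) and 0.825 at Rspo4 (percentile 75.5), whose start-site peaks were among the strongest and the weakest. Genes with a control peak within 1 kb of the start site, which all 9 genes had, had a median of 0.749, and those without had 0.166. Of the 9 genes, only Rspo1, Rspo4, Lgr6 and Znrf3 were above 0.749.

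Among the other WNT pathway genes, the region assigned to Axin2, a known WNT target gene, stood apart in size. It lay 91.5 kb from the Axin2 start site, had a −log10 p of 66.3 and an area of 18931, against 8.50 for the strongest region at the 9 genes, and consisted of sequence that occurs once on the assembled chromosomes. Scaffolds and other sequence outside these chromosomes were not searched for copies of it.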
